A study of Mus musculus with 18 samples.

Results

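The comparison described here asked which genes answered IL-4 and IL-13 differently when mouse bone marrow-derived macrophages (BMDMs) lacked Prep, the gene of prolyl endopeptidase. For each gene the change from the unstimulated state (M0) to the stimulated state (M2) was taken in Prep-/- BMDMs and in Prep+/- BMDMs, and the difference between both changes on the log2 scale, the interaction, was tested. A positive interaction means a response that was higher (more rise or less fall) in Prep-/- cells, and a negative one a response that was lower. The comparison lies between 12 of the 18 libraries of the series, with 3 in each of the 4 groups, while the spread and the scaling were estimated over all 18, the 6 M1 libraries included. Of 12021 genes tested, 1041 (8.66%) were called, at an adjusted p under 0.05 and a difference over 1.5-fold between the responses, 545 with a higher and 496 with a lower response. Fitted on the 12 libraries alone, 562 were called, 252 higher and 310 lower.

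Bulk mRNA-seq was performed on BMDMs from Prep-/- mice and Prep+/- littermates on the C57BL6/J background. Bone marrow of both genotypes was differentiated over 7 days in medium holding 50 ng/ml M-CSF, the macrophage growth factor. M0 cells then received no stimulus, while M2 cells received IL-4 and IL-13, each at 20 ng/ml, for 24 h. The knockout is not limited to macrophages, the reference group carries 1 disrupted allele of Prep rather than none, and each group holds 3 biological replicates whose number is not tied in the labels to a particular mouse. Since these are bulk samples, fewer cells of a type and less RNA per cell cannot be told apart in any of the levels below.

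IL-4 binds the IL-4 receptor alpha chain paired with the common gamma chain, and both cytokines bind that chain paired with the IL-13 receptor alpha 1 chain. JAK kinases on these receptors phosphorylate STAT6, which enters the nucleus and switches on genes of alternative macrophage activation, among them arginase 1, C-type lectins and regulators such as PPAR-gamma and IRF4. Suppressors of cytokine signalling such as CISH and SOCS1 are induced at the same time and restrain the receptors.

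The targeted gene was low in every library labelled Prep-/-. Prep (GRCm39 chr10:44943130-45043294, plus strand) stood at 30.1, 34.9 and 42.5 CPM (a library's counts scaled to a common total with TMM factors) in Prep+/- M0 and at 1.99, 2.01 and 1.48 CPM in Prep-/- M0. In M2 it was at 37.8, 38.3 and 40.2 CPM in Prep+/- and at 3.22, 2.40 and 2.88 CPM in Prep-/- libraries. The genotypes did not overlap in either state, and the interaction of Prep itself was 0.52 (SE 0.26, adjusted p = 0.215).

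Total counts of the 12 libraries ran from 19068237 to 21691155. No pair of replicates was as close as sampling noise allows, and replicate 3 of Prep-/- M0 and replicate 3 of Prep-/- M2 stood apart from the other libraries of their groups, with a chi-square per gene of 108 to 117 against them and of 11.8 to 34.5 for every other pair within a group. Beside many of the values that follow, those without one or both of these libraries are given. The 6 macrophage markers Adgre1, Csf1r, Cd68, Itgam, Mertk and Fcgr1 summed to 3388 to 3883 CPM in Prep+/- M0, 4690 to 8296 in Prep-/- M0, 3457 to 4038 in Prep+/- M2 and 4272 to 4826 in Prep-/- M2. Granulocyte precursor markers summed to 76.1 to 99.1, 134 to 196, 51.6 to 60.6 and 55.8 to 85.7 CPM in the same order, and those of monocytes to 74.2 to 83.4, 145 to 262, 929 to 1234 and 2390 to 4046 CPM. The monocyte sum holds Chil3, itself induced by IL-4, and without it the other 6 markers summed to 68.2 to 74.1, 137 to 234, 25.9 to 34.4 and 24.3 to 26.2 CPM. The sums for dendritic cells (at most 2.83 CPM), mast cells and basophils (0.959), B cells (12), T and NK cells (0.285), erythroid cells (3.52), eosinophils (18.5) and stromal cells (30.6) were low in every library. The eosinophil maximum lay in replicate 3 of Prep-/- M2, whose fellow replicates held 2.92 and 2.55 CPM. The part of these markers in the results was not tested.

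By the count of calls, the response was wider in Prep-/- than in Prep+/- BMDMs. In Prep+/- cells 1546 genes (12.9% of those tested) changed, 732 up (6.09%) and 814 down (6.77%), and in Prep-/- cells 3636 genes (30.2%) changed, 1767 up (14.7%) and 1869 down (15.5%). Without both Prep-/- libraries that stand apart, it was 814 up and 1132 down in Prep+/- cells. In Prep-/- cells it was then 1518 up and 1785 down. The Prep+/- response holds neither library, but the spread is shared by all groups. Calls in Prep+/- cells, and so the classes below, thus also depend on the spread of Prep-/- libraries. Across all genes tested the 2 responses, which share no library, correlated with r = 0.73, given as a description over genes that are not independent. The 1041 called genes were sorted by where the response itself was called. In 665 (5.53% of all genes tested) it was gained, that is called in Prep-/- cells alone, and in 77 (0.641%) it was lost, that is called in Prep+/- cells alone. In 186 (1.55%) it was stronger and in 19 (0.158%) weaker in the same direction, in 7 (0.0582%) it was reversed, and in 87 (0.724%) it passed the test in neither genotype although the difference did.

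**Figure D1:**
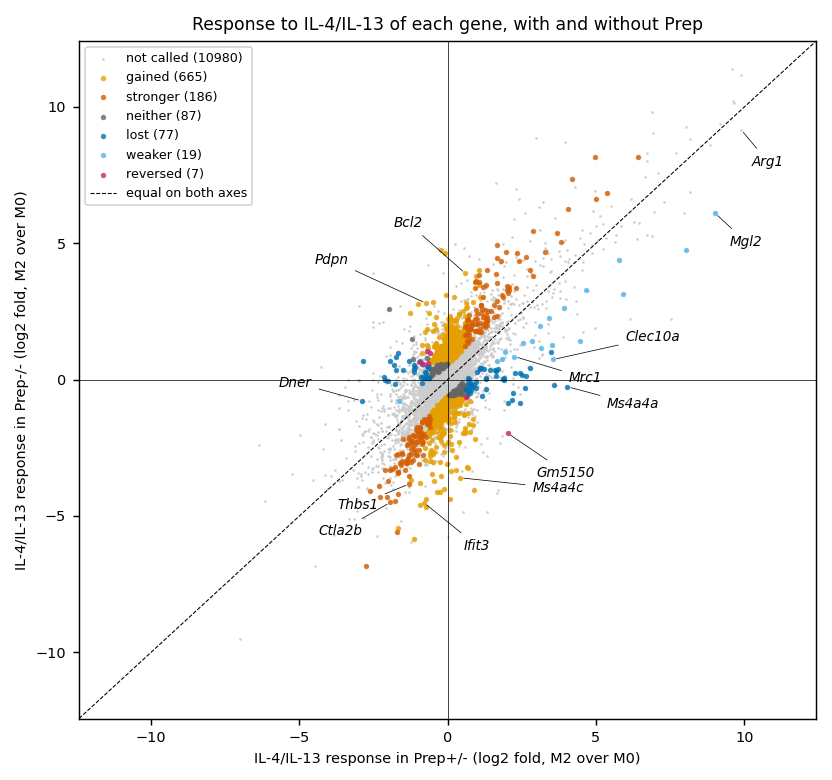
Each point is 1 of 12021 genes, with its log2 response to IL-4/IL-13 (M2 over M0) in Prep+/- BMDMs on the x axis and in Prep-/- BMDMs on the y axis. Colours mark the classes of the 1041 called genes and the dashed line marks equal responses. Gained genes (665) form a vertical band around an x of 0, and lost genes (77) a thinner horizontal band around a y of 0. The place of both bands follows from how the classes are defined.

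For most called genes the genotypes were farther apart before the stimulus than after it. The difference between Prep-/- and Prep+/- was larger in size in M0 for 828 of the 1041 genes, and 657 passed the test between genotypes in M0 alone, 144 in M2 alone, 117 in both and 123 in neither. The split by state was counted for the called genes only, and a lean to M0 was not particular to them. Over all genes tested, 3913 (32.6%) differed between genotypes in M0, 1848 higher (15.4%) and 2065 lower (17.2%) in Prep-/- cells. In M2 it was 1947 (16.2%), 766 higher (6.37%) and 1181 lower (9.82%). These contrasts use the same libraries as the interaction and are given beside it as levels, not as further evidence. Among gained genes that rose, the median log2 difference between genotypes was -1.0 in M0 and 0.04 in M2. Among gained genes that fell it was 1.01 in M0 and -0.03 in M2.

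**Figure D2:**
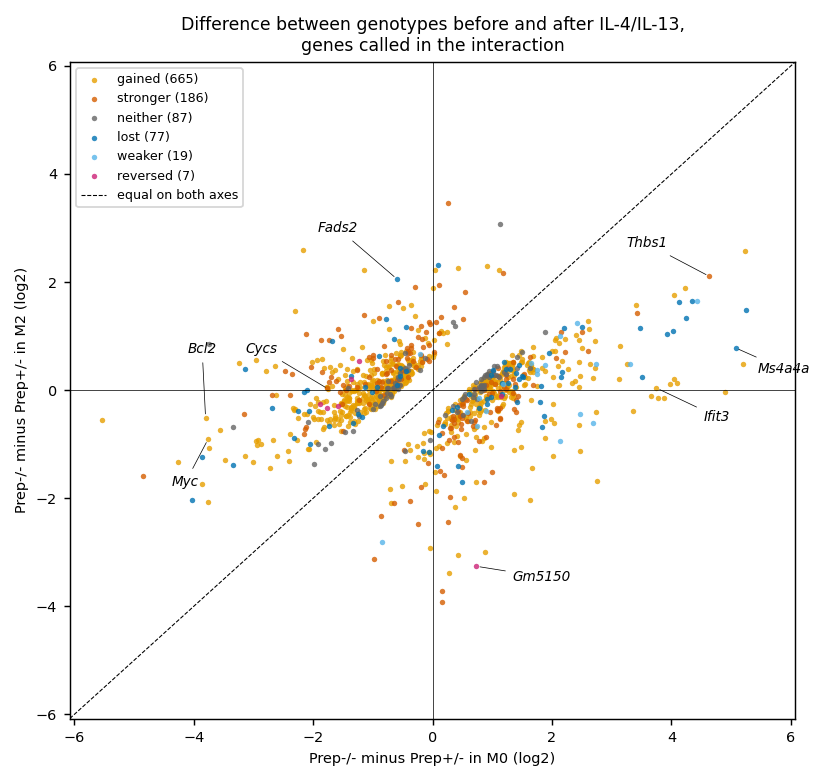
The x axis gives the log2 difference Prep-/- minus Prep+/- in M0 and the y axis that in M2, for the 1041 genes called in the interaction, coloured by class. Points near the horizontal line at 0 differed before the stimulus and little after it, as for Ifit3 and Cycs, while Gm5150 and Fads2 differed mainly in M2; the empty band along the dashed line follows from the call itself.

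Lost responses that rose in Prep+/- cells (47 genes) were led by Ms4a4a (chr19:11352823-11370154, plus strand), which encodes a tetraspan membrane protein of macrophages. It was at 15.7, 5.68 and 7.13 CPM in Prep+/- M0 and at 181, 161 and 122 CPM in Prep+/- M2. In Prep-/- libraries it was already at 398, 234 and 324 CPM in M0, and at 325, 348 and 126 CPM in M2. The Prep+/- states did not overlap while the Prep-/- states did. Its response was 4.03 in Prep+/- and -0.26 in Prep-/- cells, an interaction of -4.29 (SE 0.52, adjusted p = 0.000203) that stayed between -4.85 and -3.94 when any 1 of the 12 libraries was left out.

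Next by size came 3 genes of the MHC class II chains, which present peptides to CD4+ T cells. H2-Aa was at 3.42, 5.01 and 2.65 CPM in Prep+/- M0 and 26.3, 23.3 and 18.6 CPM in Prep+/- M2. In Prep-/- it was at 166, 24.5 and 20.2 CPM in M0 and 78.5, 51.5 and 41.9 CPM in M2. Replicate 1 of Prep-/- M0 was well above the other libraries of its group. The interaction was -2.91 for H2-Aa (SE 0.82, adjusted p = 0.0357), -2.94 for H2-Eb1 (SE 0.88, adjusted p = 0.0444) and -2.70 for H2-Ab1 (SE 0.79, adjusted p = 0.0406). Without replicate 1 of Prep-/- M0 these became -1.26, -1.23 and -1.13 with adjusted p of 0.0575, 0.124 and 0.0684. Each call was kept in 4 of the 12 fits that left out 1 library. In M2 each Prep-/- library was above each Prep+/- library for all 3. The annotated spans of H2-Aa and H2-Eb1 overlap on opposite strands, and whether the counting used strand is not given in the sources used here.

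Of the lost responses that fell in Prep+/- cells (30 genes), Dner, a gene of a Notch ligand-like transmembrane protein, had the lowest adjusted p of the 4 named by size. It was at 8.07, 12.2 and 10.7 CPM in Prep+/- M0 against 1.49, 1.38 and 1.29 CPM in Prep+/- M2. The Prep-/- libraries held 2.56, 2.01 and 2.63 CPM in M0 and 0.755, 0.700 and 2.68 CPM in M2. Prep-/- cells thus started low and replicate 3 alone of their M2 libraries stayed at the M0 level. The interaction was 2.10 (SE 0.53, adjusted p = 0.021), and 1.19 (adjusted p = 0.122) without that replicate, and its call was kept in 9 of 12 fits with 1 library left out. Cav1, the gene of the caveola coat protein caveolin-1, was at 9.71, 19.5 and 10.3 CPM in Prep+/- M0 and 3.28, 4.07 and 4.37 CPM in Prep+/- M2, with 7.73, 3.39 and 1.29 CPM in Prep-/- M0 and 5.68, 4.25 and 12.1 CPM in Prep-/- M2. The Prep+/- states did not overlap and the Prep-/- states did, for an interaction of 2.59 (SE 0.67, adjusted p = 0.0242). Without replicate 3 of Prep-/- M2, the library at 12.1 CPM, it was 2.05 and did not pass the test. The call was kept in 8 of 12 fits with 1 library left out and lost in the fit of the M0 and M2 libraries alone (adjusted p = 0.0731). The desaturase gene Fads2 and the pseudokinase gene Prag1 had interactions of 2.66 (adjusted p = 0.0359) and 2.37 (adjusted p = 0.0381), which fell to 1.21 (adjusted p = 0.0747) and 1.12 (adjusted p = 0.242) without replicate 3 of Prep-/- M2, and each was kept in 4 of 12 fits.

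Gained responses that rose (371 genes) were led by Ak4, Pdpn, Bcl2 and Eef1a2. Bcl2, which encodes the anti-apoptotic protein of the outer mitochondrial membrane, was at 6.11, 9.94 and 10.1 CPM in Prep+/- M0 and 11.7, 11.4 and 16.5 CPM in Prep+/- M2. In Prep-/- it was at 0.901, 0.209 and 0.784 CPM in M0 and 4.23, 3.5 and 20.1 CPM in M2. The Prep-/- M0 libraries were below all others, and replicate 3 of Prep-/- M2 was the highest of the 12. Its response was 0.60 (adjusted p = 0.429) in Prep+/- and 3.89 in Prep-/- cells, an interaction of 3.29 (SE 0.79, adjusted p = 0.0167), and 2.04 (adjusted p = 0.0145) without that replicate.

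The other 3 leaned on the same library. Ak4, the gene of a mitochondrial adenylate kinase, was at 1.42, 0.419 and 0.508 CPM in Prep-/- M0 and 2.57, 1.80 and 11.4 CPM in Prep-/- M2, with 2.92, 3.63 and 4.89 CPM in Prep+/- M0 and 1.11, 0.965 and 3.70 CPM in Prep+/- M2. Its interaction of 3.76 (SE 0.91, adjusted p = 0.0175) became 2.51 (adjusted p = 0.0399) without replicate 3 of Prep-/- M2. Pdpn, which encodes the mucin-type glycoprotein podoplanin, and Eef1a2, a translation elongation factor gene, had interactions of 3.52 (adjusted p = 0.0238) and 3.15 (adjusted p = 0.0313), and of 1.72 (adjusted p = 0.0548) and 1.63 (adjusted p = 0.0881) without it. The call of Pdpn was kept in 6 and that of Eef1a2 in 5 of 12 fits with 1 library left out. Ak4 has a processed copy that shares 99.6% of 672 bases, between which the counting could split reads.

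Gained responses that fell (294 genes) were led by Ms4a4c, a second MS4A family gene, and by the interferon-stimulated genes Ifit1, Cxcl10 and Ifit3. Ms4a4c was at 2.96, 1.14 and 2.16 CPM in Prep+/- M0 and 2.22, 4.57 and 1.47 CPM in Prep+/- M2. Prep-/- libraries held 38.9, 25.5 and 27.3 CPM in M0 and 3.12, 3.70 and 0.767 CPM in M2. Only the Prep-/- M0 libraries stood apart, above the other 9. The response was 0.42 (adjusted p = 0.589) in Prep+/- and -3.60 in Prep-/- cells, an interaction of -4.01 (SE 0.63, adjusted p = 0.00153) that held with each library left out (-4.38 to -3.44).

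Ifit3, which encodes an interferon-induced protein of the innate antiviral response, followed the same pattern of levels. It was at 7.02, 3.20 and 8.66 CPM in Prep+/- M0, 5.54, 2.01 and 3.26 CPM in Prep+/- M2, 135, 52.7 and 66.3 CPM in Prep-/- M0 and 4.78, 4 and 2.35 CPM in Prep-/- M2. Again the Prep-/- M0 libraries were above all others, and M2 libraries of the genotypes overlapped. The interaction was -3.71 (SE 0.66, adjusted p = 0.00356) for Ifit3 and -3.76 (SE 0.72, adjusted p = 0.00523) for Ifit1, which encodes a related RNA-binding protein and was at 88.2, 46.3 and 68.5 CPM in Prep-/- M0 against 1.47 to 8.23 CPM in the other groups. Cxcl10, the gene of a chemokine that attracts T cells, had an interaction of -3.74 (SE 1.0, adjusted p = 0.0268), and its call was kept in 6 of 12 fits with 1 library left out. The transcript of Ifit3 shares 97.2% of 1978 bases with Ifit3b, and Ms4a4c shares 90.5% of 824 bases with Ms4a4b, so counts of these pairs could be divided between them.

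Reversed responses were called in 7 genes, 2 that rose in Prep+/- and fell in Prep-/- cells and 5 with the opposite pattern. Gm5150, a protein-coding gene model (chr3:16001023-16060601, minus strand), was at 9.48, 11.7 and 10.3 CPM in Prep+/- M0 and 44.9, 39.2 and 44.0 CPM in Prep+/- M2. In Prep-/- it was at 18.6, 15.4 and 18.3 CPM in M0 and 2.16, 4.65 and 6.52 CPM in M2. The 4 groups did not overlap at all, with the Prep+/- M2 libraries highest and the Prep-/- M2 libraries lowest. Its response was 2.03 in Prep+/- (adjusted p = 8.49e-06) and -1.97 in Prep-/- cells (adjusted p = 9.4e-06), an interaction of -3.99 (SE 0.34, adjusted p = 2.39e-05) that ranged from -4.37 to -3.68 with 1 library left out. Its transcripts share stretches with those of 178 other annotated genes, so its counts are uncertain to that extent.

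Bhlhe41 encodes a basic helix-loop-helix repressor also known for its part in the circadian clock. Its levels were 54.0, 59.6 and 56 CPM in Prep+/- M0 and 38.4, 35.9 and 37.8 CPM in Prep+/- M2, and 19.7, 22.3 and 23.6 CPM in Prep-/- M0 and 46.8, 37.0 and 45.7 CPM in Prep-/- M2. The states did not overlap in either genotype, while the M2 libraries of the genotypes did. The response was -0.60 in Prep+/- and 0.98 in Prep-/- cells, an interaction of 1.58 (SE 0.16, adjusted p = 6.66e-05).

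Pgk1, the gene of the glycolytic enzyme phosphoglycerate kinase 1, was at 888, 939 and 968 CPM in Prep+/- M0 and 564, 581 and 629 CPM in Prep+/- M2, but at 241, 324 and 368 CPM in Prep-/- M0 and 411, 421 and 610 CPM in Prep-/- M2. It fell by 0.66 in Prep+/- and rose by 0.63 in Prep-/- cells (interaction 1.28, SE 0.22, adjusted p = 0.00247). Rara, which encodes retinoic acid receptor alpha, did the opposite at a smaller scale. It was at 17.2, 15.9 and 15.0 CPM in Prep+/- M0, 26.8, 24.4 and 22.6 CPM in Prep+/- M2, 36.7, 32.7 and 36.9 CPM in Prep-/- M0 and 23, 29.7 and 15.6 CPM in Prep-/- M2 (interaction -1.25, SE 0.23, adjusted p = 0.00437). A copy of Pgk1 on another locus is identical over 1255 bases. The remaining 3 reversed genes, Lrrc27, Ptges and Slc20a1, fell in Prep+/- cells and rose in Prep-/- cells and are named because the class is small, not by the rule.

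Weaker and stronger responses kept their direction. Fcgr2b, which encodes the inhibitory Fc gamma receptor, was at 41.1, 33.9 and 30.1 CPM in Prep+/- M0 and 414, 449 and 353 CPM in Prep+/- M2. In Prep-/- it was at 264, 240 and 196 CPM in M0 and 655, 706 and 342 CPM in M2. The rise was 11.6-fold in Prep+/- and 2.43-fold in Prep-/- cells, from a higher start in each Prep-/- library (interaction -2.25, SE 0.30, adjusted p = 0.000475). It shares 96.3% of 512 bases with Fcgr3.

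Among stronger rises, the orphan receptor gene Gprc5b went from 2.46, 4.89 and 4.45 CPM to 7.25, 10.6 and 6.78 CPM in Prep+/- cells and from 1.19, 1.09 and 0.969 CPM to 18.9, 11.6 and 16.2 CPM in Prep-/- cells (interaction 2.79, SE 0.42, adjusted p = 0.00105). Prep-/- libraries were lower than all Prep+/- libraries in M0 and higher than all of them in M2. The polo-like kinase gene Plk3 rose from 4.74, 6.83 and 9.74 CPM to 17.9, 13.4 and 22.5 CPM and from 0.996, 0.712 and 0.692 CPM to 8.60, 7.6 and 23.2 CPM in Prep+/- and Prep-/- cells, respectively (interaction 2.70, SE 0.57, adjusted p = 0.00876).

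Among stronger falls, Ctla2b, which encodes a protein similar to the inhibitory propeptide of cysteine proteases, fell from 80.4, 71.5 and 61.7 CPM to 20.1, 19.3 and 16.5 CPM in Prep+/- cells. In Prep-/- cells it fell from 108, 124 and 157 CPM to 5.08, 6.80 and 5.22 CPM (interaction -2.57, SE 0.24, adjusted p = 3.34e-05). The genotypes traded places, with Prep-/- above in M0 and below in M2, without overlap in either. Thbs1, the gene of the matrix glycoprotein thrombospondin 1, fell from 10.9, 5.25 and 11.7 CPM to 3.28, 4.82 and 3.21 CPM in Prep+/- cells and from 347, 206 and 140 CPM to 17.7, 16.5 and 14.7 CPM in Prep-/- cells (interaction -2.53, SE 0.44, adjusted p = 0.0032). Even after the larger fall each Prep-/- M2 library stayed above each Prep+/- library in either state. Ctla2b shares 94.0% of 654 bases with Ctla2a.

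**Figure D3:**
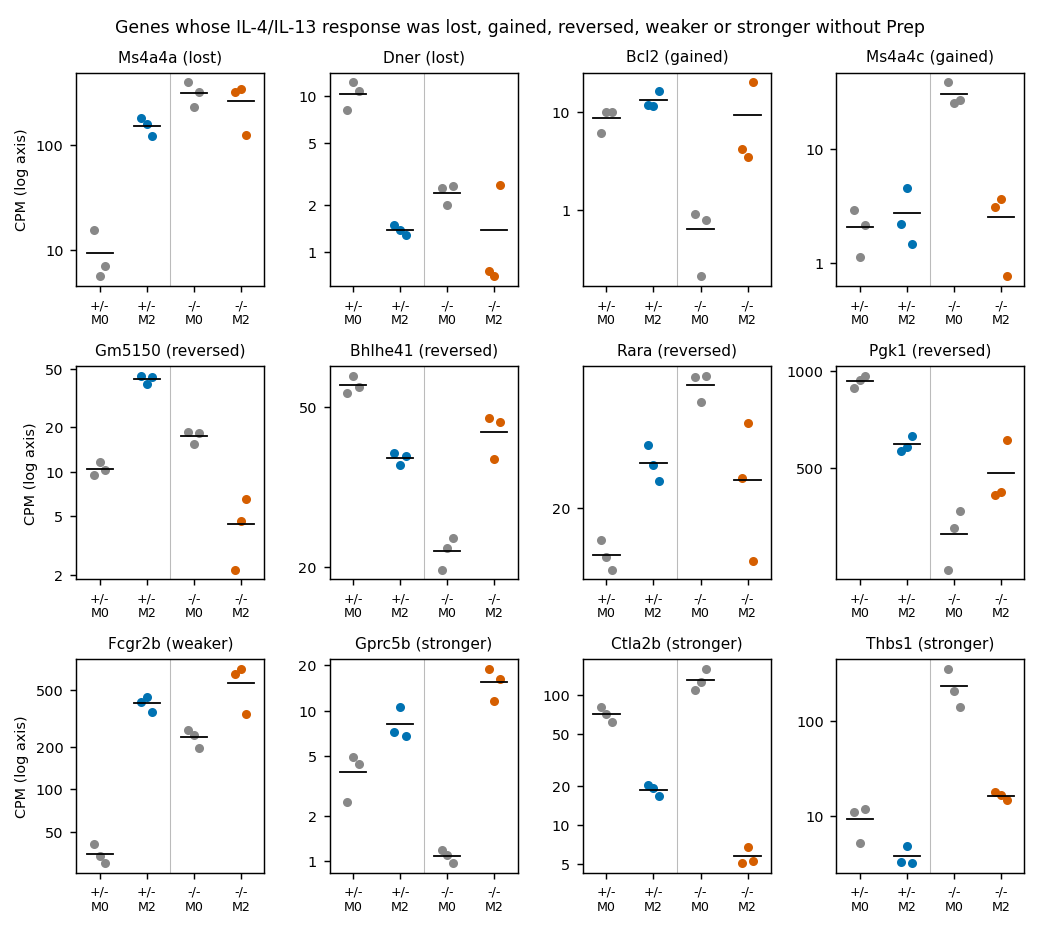
Each panel shows 1 gene in 12 libraries, as TMM-scaled CPM on a log axis, with a dot per library, a bar at the group mean of 3, and Prep+/- (left) and Prep-/- (right) M0 and M2 groups side by side. In Ms4a4a, Ms4a4c and Thbs1 the Prep-/- M0 group is far above Prep+/- M0, in Gm5150 the states move in opposite directions, and in Dner and Bcl2 replicate 3 of Prep-/- M2 is above the other 2.

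Called genes with a group under 0.5 CPM (6 with a higher and 10 with a lower response) were kept out of this ranking, and the 2 most abundant in each direction are given here. Bex1, known from brain, was at 0.0912 to 0.231 CPM in the 6 M0 libraries, at 4.26, 4.78 and 3.12 CPM in Prep+/- M2 and at 65.0, 28.5 and 40.1 CPM in Prep-/- M2. Ear2, which encodes a ribonuclease of the eosinophil-associated family, rose from 0.775, 1.03 and 1.56 CPM to 22.6, 24.1 and 15.7 CPM in Prep+/- cells and from 0.427, 0.126 and 0.231 CPM to 56.7, 53.5 and 18.4 CPM in Prep-/- cells (interaction 3.16, SE 0.75, adjusted p = 0.0161). In both genes the M2 libraries carried the higher levels in every case. Ifit1bl1, an Ifit family gene, was at 45.2, 32.5 and 17.7 CPM in Prep-/- M0 and at most 1.05 CPM in the other 9 libraries (interaction -4.72, SE 1.10, adjusted p = 0.0148). Scimp, the gene of a transmembrane adaptor of immune cells, had 3 counts or fewer in each Prep+/- M0 library, so no fold is given; it was at 2.04, 1.51 and 1.34 CPM in Prep-/- M0, 3.58, 3.19 and 6.91 CPM in Prep+/- M2 and 14.3, 14.9 and 13.6 CPM in Prep-/- M2.

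Of 39 genes tested from a list of IL-4/IL-13 receptors, kinases, suppressors and transcription factors, 8 (20.5%) were called, 4 in each direction, with a median interaction of -0.23 against -0.01 over all genes tested. The receptor and kinase genes were not among them. Il4ra, the shared receptor chain, had an interaction of -0.54 (SE 0.25, adjusted p = 0.179), and Il13ra1 one of -0.23 (SE 0.42, adjusted p = 0.769). Stat6 was at 166, 197 and 205 CPM in Prep+/- M0 and 194, 186 and 138 CPM in Prep-/- M0, and at 157 to 181 CPM and 190 to 199 CPM in the M2 groups (interaction 0.32, SE 0.17, adjusted p = 0.255). The common gamma chain gene Il2rg (0.32, SE 0.20) and the kinase genes Jak1 (-0.23, SE 0.25), Jak3 (-0.29, SE 0.20) and Tyk2 (-0.17, SE 0.19) did not pass either, with adjusted p from 0.335 to 0.611.

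Among the suppressors, Cish, a STAT-induced feedback inhibitor, had a weaker rise. It went from 0.684, 1.14 and 0.721 CPM to 45.4, 50.0 and 47.2 CPM in Prep+/- cells and from 3.51, 2.97 and 3 CPM to 74.8, 69.8 and 53.2 CPM in Prep-/- cells, a rise of 55.2-fold and 20.9-fold (interaction -1.40, SE 0.27, adjusted p = 0.00578). Prep-/- libraries were the higher ones in both states. Socs3 fell in Prep-/- cells only by the test of each response, from 13, 11.6 and 5.81 CPM to 3.77, 4.20 and 3.36 CPM, and was at 2.85 to 4.06 CPM in all Prep+/- libraries (interaction -1.43, SE 0.32, adjusted p = 0.0122). Socs1 had an interaction of -1.23 (SE 0.51) that did not pass (adjusted p = 0.135).

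The transcription factors split. Irf4, needed for M2 activation, rose from 1.82, 1.74 and 2 CPM to 45.0, 52.5 and 43.3 CPM in Prep+/- cells and from 7.45, 5.65 and 5.72 CPM to 53.9, 57.8 and 71.8 CPM in Prep-/- cells (interaction -1.37, SE 0.29, adjusted p = 0.00855). The smaller fold in Prep-/- cells came with a higher level in both states. Pparg, which drives lipid metabolism in M2 macrophages, rose from 14.9, 19.7 and 20.7 CPM to 69.6, 74.7 and 81.4 CPM and from 17.4, 13 and 11.4 CPM to 129, 105 and 139 CPM, respectively (interaction 1.13, SE 0.25, adjusted p = 0.0101). Here the M0 libraries overlapped and those of M2 did not. Its coactivator gene Ppargc1b (interaction 1.27, SE 0.29, adjusted p = 0.0139) and the repressor gene Bhlhe40 (1.68, SE 0.28, adjusted p = 0.00203) had stronger rises as well, each higher in all Prep-/- M2 than in all Prep+/- M2 libraries.

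Kdm6b, the gene of a histone H3 lysine 27 demethylase, was at 2.76 to 4.91 CPM in all Prep+/- libraries and fell from 17.8, 19.9 and 14.9 CPM to 9.10, 9.25 and 8.53 CPM in Prep-/- cells (interaction -1.29, SE 0.26, adjusted p = 0.00683). Myc rose in Prep-/- cells from 2.56, 1.46 and 1.66 CPM to 12, 11.4 and 55.1 CPM, while Prep+/- libraries spread from 9.53 to 43.4 CPM in M0 and from 37.4 to 65.4 CPM in M2. Its interaction of 2.85 (SE 0.82, adjusted p = 0.0376) became 1.70 (adjusted p = 0.108) without replicate 3 of Prep-/- M2. Klf4, which cooperates with STAT6, rose 2.84 in both genotypes (interaction 0.01, SE 0.25, adjusted p = 0.994).

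A list of 72 tested M2 target genes held 21 called members (29.2%), 11 with a higher and 10 with a lower response, and a median interaction of 0.49. The count was 13 to 26 with 1 library left out. Without replicate 3 of Prep-/- M2 the count was 20 and the median -0.06, on the other side of 0. Of the 72, 49 rose in Prep+/- and 52 in Prep-/- cells, by the test of each response. A response was lost in 1 of the 21 and weaker in 6, and it was stronger in 12 and gained in 2.

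The 4 M2 markers of the study were induced in each genotype. Mrc1, the gene of the mannose receptor, was the only one called. It went from 546, 455 and 570 CPM to 2401, 2728 and 2335 CPM in Prep+/- cells and from 804, 878 and 953 CPM to 1602, 1930 and 1210 CPM in Prep-/- cells. The genotypes traded places without overlap in either state, and the rise was 4.75-fold and 1.80-fold (interaction -1.40, SE 0.24, adjusted p = 0.00266).

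Arg1, which encodes arginase 1, went from 1.82 to 2.55 CPM in Prep+/- M0 to 2288, 2142 and 1972 CPM in M2. In Prep-/- M2 it was at 334, 473 and 495 CPM, below every Prep+/- M2 library, and it was also lower in M0 (0.996, 1.05 and 0.185 CPM). The interaction of Arg1 was -0.72 (SE 0.47, adjusted p = 0.36). Chil3 (0.50, SE 0.45, adjusted p = 0.521) and Retnla (1.82, SE 0.85, adjusted p = 0.189), genes of a chitinase-like and a resistin-like secreted protein, did not pass either, though all Prep-/- M2 libraries were above all Prep+/- M2 libraries, at 2365 to 4020 CPM against 903 to 1204 CPM for Chil3 and at 3286 to 6120 CPM against 1311 to 2081 CPM for Retnla. Chil3 shares 92.8% of 1019 bases with Chil4, and Retnla shares 91.3% of 231 bases with Retnlg.

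Of the 6 weaker responses, 4 were those of C-type lectin genes, Mrc1 included. Mgl2 (CD301b) rose from 1.64, 0.671 and 1.16 CPM to 583, 566 and 631 CPM in Prep+/- cells and from 9.86, 5.40 and 3.78 CPM to 408, 499 and 402 CPM in Prep-/- cells (interaction -2.91, SE 0.45, adjusted p = 0.00132). Clec10a (CD301a), its neighbour gene for a related galactose-binding lectin, rose from 17.6, 12.2 and 9.54 CPM to 150, 144 and 167 CPM and from 146, 106 and 136 CPM to 251, 252 and 144 CPM (interaction -2.82, SE 0.30, adjusted p = 6.66e-05). For both, Prep-/- M0 libraries were above all Prep+/- M0 libraries, and Clec10a in Prep-/- M0 overlapped the range of Prep+/- M2. They share 93.9% of 830 bases, so part of either count could come from the other. Clec7a, the gene of the beta-glucan receptor dectin-1, rose 10.6-fold and 4.84-fold (interaction -1.13, SE 0.32, adjusted p = 0.038, kept in 5 of 12 fits with 1 library left out), the kinase gene Matk 8.67-fold and 3.93-fold (-1.14, SE 0.28, adjusted p = 0.0183) and the chemokine gene Ccl12 8.79-fold and 2.24-fold (-1.97, SE 0.54, adjusted p = 0.0301, kept in 5 of 12). The ubiquitin ligase gene Znrf2 was the lost member, with a rise of 2.15-fold in Prep+/- and 1.33-fold in Prep-/- cells (-0.69, SE 0.12, adjusted p = 0.00285).

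The stronger rises included genes of lipid and matrix proteins. Fabp4, a fatty acid-binding protein gene, rose from 14.3, 14.4 and 12.8 CPM to 86.4, 78.9 and 93.5 CPM in Prep+/- cells and from 16.8, 8.12 and 19.7 CPM to 454, 285 and 261 CPM in Prep-/- cells (interaction 1.85, SE 0.36, adjusted p = 0.00611). The M0 libraries of the genotypes overlapped and those of M2 were far apart. Fn1, the fibronectin gene, behaved alike, with M2 levels of 61.8, 86.6 and 62.5 CPM in Prep+/- and 248, 209 and 193 CPM in Prep-/- cells (interaction 2.2, SE 0.60, adjusted p = 0.0304). In contrast, Slc7a2, which encodes a cationic amino acid transporter, was lower in Prep-/- M0 (1.80, 1.46 and 1.48 CPM against 3.97, 3.75 and 3.65 CPM) and overlapped in M2 (interaction 1.63, SE 0.24, adjusted p = 0.00105). Tmem26, a transmembrane protein gene, was lower in Prep-/- cells in M0 and higher in M2, at 1.75, 0.628 and 0.738 CPM against 2.14, 3.08 and 4.21 CPM in M0 and 286 to 323 CPM against 260 to 278 CPM in M2 (interaction 1.78, SE 0.39, adjusted p = 0.0101). The purinergic receptor gene P2ry1 (0.93, SE 0.17, adjusted p = 0.00457), the VEGF receptor gene Flt1 (1.48, SE 0.45, adjusted p = 0.0499, kept in 3 of 12 fits) and the chemokine gene Ccl6 (0.98, SE 0.26, adjusted p = 0.0288, kept in 5 of 12) also rose more. The coagulation factor gene F13a1 (-1.58, SE 0.34, adjusted p = 0.0101) and the scavenger receptor gene Stab1 (-0.96, SE 0.27, adjusted p = 0.0367, kept in 4 of 12) fell more. The lipid droplet gene Plin2 (0.74, adjusted p = 0.0195) gained a rise and Cd1d1 (-1.41, adjusted p = 0.0088), a lipid antigen-presenting molecule gene, a fall.

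Of the 4 cathepsin genes followed by the study, Ctsk had a stronger rise. It went from 7.16, 8.44 and 7.01 CPM to 20.0, 24.5 and 21.7 CPM in Prep+/- cells and from 6.17, 6.4 and 8.44 CPM to 49.1, 44.7 and 45.8 CPM in Prep-/- cells, 2.92-fold and 6.64-fold (interaction 1.18, SE 0.23, adjusted p = 0.00622). The M0 groups overlapped and the M2 groups did not. Ctsb (0.34, adjusted p = 0.248), Ctsd (0.30, adjusted p = 0.358) and Ctss (0.00, adjusted p = 1) did not pass. In the wider list of 61 lysosomal genes, 7 (11.5%) were called, 6 higher and 1 lower, against 8.66% of all genes tested. They were led by the acid phosphatase gene Acp5 (1.31, SE 0.24, adjusted p = 0.00415) and Ctsk, and the median interaction of the list was 0.11. By the test between genotypes, 23 of the 61 were higher and 2 lower in Prep-/- cells in M0. In M2 it was 25 higher and 1 lower. Over all genes tested, 15.4% were higher in M0 and 6.37% in M2.

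**Figure D4:**
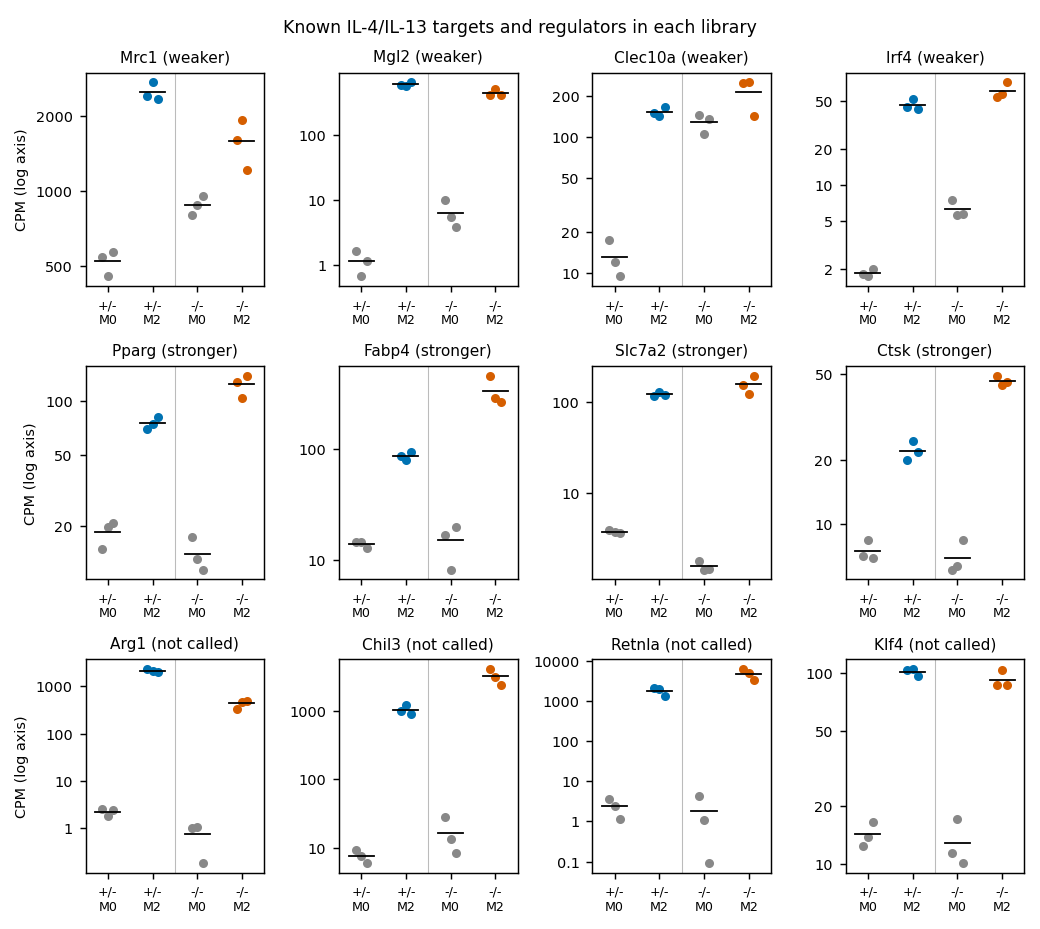
CPM on a log axis of 12 known targets and regulators of the IL-4/IL-13 response, with a dot per library and a bar at each group mean of 3. The top row shows weaker rises in Prep-/- cells, each from a raised Prep-/- M0 group, the middle row stronger rises, and the bottom row 4 genes whose interaction did not pass, among them Arg1, at 334 to 495 CPM in Prep-/- M2 against 1972 to 2288 CPM in Prep+/- M2.

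All gene lists were chosen with earlier results of these data known, so their shares are a description only. The largest share of called members in any list was that of the interferon-stimulated genes, which cells switch on after type I interferon. All 25 called members of 37 tested (67.6%) had a lower response, and the interaction was below 0 in 37 of 37, with a median of -1.46 against -0.01 over all genes tested. The response was gained, as a fall, in 22 of the 25. In M0, 34 of the 37 were higher in Prep-/- than in Prep+/- cells by the test between genotypes, and in M2 it was 3 higher and 3 lower. The count stood at 17 to 27 with 1 library left out, lowest without replicate 2 of Prep+/- M0 and without replicate 1 of Prep+/- M2, and at 7 when tested against the fold itself (glmTreat).

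By size, Ifi44 came first, at 9.63, 3.85 and 4.38 CPM in Prep-/- M0 and at 0.144 to 1.88 CPM in the other 9 libraries (interaction -4.45, SE 0.86, adjusted p = 0.00557), followed by Ifit1. Isg15, which encodes a ubiquitin-like modifier, and Rsad2, which encodes the antiviral enzyme viperin, are given for their promoters and were chosen after their values were seen. Isg15 was at 11.4, 8.60 and 12 CPM in Prep+/- M0, 55.6, 26.5 and 48.1 CPM in Prep-/- M0, 18.3, 6.84 and 7.00 CPM in Prep+/- M2 and 10.5, 7.80 and 8.63 CPM in Prep-/- M2 (interaction -2.28, SE 0.49, adjusted p = 0.0101). Rsad2 was at 12.9, 8.72 and 13.1, 135, 76.1 and 93.5, 11.3, 3.73 and 8.87, and 14.5, 6.30 and 6.66 CPM in the same order (interaction -2.93, SE 0.67, adjusted p = 0.013). Both were high only in the Prep-/- M0 libraries. Usp18, the gene of the protease that removes ISG15 and a brake on interferon receptors, was the lost member, with a rise of 2.27 in Prep+/- cells from 6.88, 4.26 and 6.81 CPM to 40, 23.7 and 22.8 CPM and no called change in Prep-/- cells, from 27.2, 15.2 and 19.7 CPM to 28.6, 27.0 and 18.6 CPM (interaction -2.01, SE 0.40, adjusted p = 0.00617); it too was singled out afterwards.

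The promoters of these genes were searched for the letters GAAA, any 2 bases and again GAAA, the core of the element bound by interferon-activated factors, on both strands of the 250 bases before the gene start given by RefSeq. The letters were found in 12 of 29 tested interferon-stimulated genes with a promoter in the RefSeq table (41.4%). Of the called ones it was 10 of 21 (47.6%), near the share of the whole list. They were found in 30 of 233 genes with a gained fall (12.9%) and in 276 of 9681 tested genes (2.85%). The gained falls include 22 of the 25 called interferon-stimulated genes, so these shares overlap. The match is a description of these windows. The sequences are shown 5′ to 3′ in the direction of the gene, from RefSeq's table on GRCm38.p6 and placed by exact match on GRCm39, with the matching letters in capitals, which read TTTC, 2 bases and TTTC where the match is on the other strand.
Isg15 (chr4:156285276-156285525, minus strand, 3 matches): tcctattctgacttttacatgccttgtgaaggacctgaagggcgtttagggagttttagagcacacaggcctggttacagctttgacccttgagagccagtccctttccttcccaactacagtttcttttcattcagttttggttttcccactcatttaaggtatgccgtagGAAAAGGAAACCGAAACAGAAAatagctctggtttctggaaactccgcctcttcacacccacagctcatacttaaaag
Cxcl10 (chr5:92496749-92496998, minus strand, 1 match): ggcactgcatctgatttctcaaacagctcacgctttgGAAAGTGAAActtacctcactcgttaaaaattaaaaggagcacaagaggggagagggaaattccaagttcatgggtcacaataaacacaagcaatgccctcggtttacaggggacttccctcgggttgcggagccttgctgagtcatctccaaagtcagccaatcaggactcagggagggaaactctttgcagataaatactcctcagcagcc
Ifit3 (chr19:34560679-34560928, plus strand, 2 matches): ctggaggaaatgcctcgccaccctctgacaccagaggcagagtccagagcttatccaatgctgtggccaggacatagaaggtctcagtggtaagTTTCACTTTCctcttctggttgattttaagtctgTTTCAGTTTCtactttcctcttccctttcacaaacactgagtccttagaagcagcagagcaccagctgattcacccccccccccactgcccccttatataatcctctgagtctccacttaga
Rsad2 (chr12:26506452-26506701, minus strand, 1 match): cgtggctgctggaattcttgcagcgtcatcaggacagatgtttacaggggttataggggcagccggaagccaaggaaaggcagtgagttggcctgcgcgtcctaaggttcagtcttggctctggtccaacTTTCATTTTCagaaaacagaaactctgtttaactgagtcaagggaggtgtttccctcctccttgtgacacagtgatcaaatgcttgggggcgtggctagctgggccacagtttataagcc

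The matches began 78, 72 and 66 bases before the RefSeq gene start in Isg15, 213 in Cxcl10, 156 and 122 in Ifit3 and 120 in Rsad2. The GRCm39 annotation starts Isg15 at 156285303 (minus strand) and Ifit3 at 34560899 (plus strand). The last printed bases of these 2 genes thus lie inside the annotated gene, and their matches are closer to that start. The palindromic letters TTC, any 4 bases and GAA, which a STAT6 dimer binds, were found in 455 of 9681 tested promoters (4.70%). They were in 4 of 29 promoters of tested interferon-stimulated genes (13.8%) and in 17 of 233 of genes with a gained fall (7.3%). Among promoters of M2 targets 5 of 50 (10%) held them, a share thus not particular to that list, and 2 of these belong to called members. They are shown for both, Clec7a with a weaker and Tmem26 with a stronger rise. They began 131 bases before the start in Clec7a, for 1 of its 2 listed starts, and 227 in Tmem26, of which bases 250 to 101 before the start are printed. In 6 tested promoters the interferon and STAT6 letters overlapped.
Clec7a (chr6:129449743-129449992, minus strand): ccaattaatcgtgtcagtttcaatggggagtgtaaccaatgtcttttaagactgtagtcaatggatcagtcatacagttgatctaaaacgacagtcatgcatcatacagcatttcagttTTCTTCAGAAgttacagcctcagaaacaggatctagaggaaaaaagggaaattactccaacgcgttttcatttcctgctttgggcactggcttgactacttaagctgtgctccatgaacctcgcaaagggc
Tmem26 (chr10:68559326-68559475, plus strand): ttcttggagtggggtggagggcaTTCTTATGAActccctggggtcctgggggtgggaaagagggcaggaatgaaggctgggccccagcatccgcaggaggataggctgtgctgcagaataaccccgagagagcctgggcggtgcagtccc

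Genes known for the response to interferon-gamma, among them the guanylate-binding proteins, had 4 of 25 members called (16%), 3 lower and 1 higher, and a median interaction of -0.43. Iigp1, an immunity-related GTPase gene, was at 13.8, 8.41 and 4.94 CPM in Prep-/- M0 and at most 0.604 CPM in the other 9 libraries (interaction -3.96, SE 1.0, adjusted p = 0.0213). Gbp8 had the higher response (1.95, SE 0.54, adjusted p = 0.0336), with 5.99, 5.30 and 2.59 CPM in Prep-/- M2 against 0.357 to 0.682 CPM in Prep+/- M2. Unlike the former list, 15 of these 25 were still higher in Prep-/- than in Prep+/- cells in M2, after 23 in M0.

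In MHC class II and co-stimulation genes 6 of 15 (40%) were called, all lower, with a median of -1.09. The count was 1 (without replicate 2 or 3 of Prep+/- M0 or replicate 2 of Prep+/- M2) to 8 with 1 library left out, 0 by glmTreat and 1 in the fit of the M0 and M2 libraries alone. By size these were H2-Ob (in which no Prep-/- M2 library had more than 1 count, so no fold is given), H2-Eb1, H2-Aa and H2-Ab1, and then Cd74 and Cd80, named here, after their values were seen, to complete the 6. Cd74, the gene of the invariant chain, rose from 31.3, 31.5 and 21.8 CPM to 336, 321 and 299 CPM in Prep+/- cells. Prep-/- libraries held 1107, 185 and 193 CPM in M0 and 1247, 1024 and 690 CPM in M2. The interaction of -2.50 (adjusted p = 0.0288) was -1.11 (adjusted p = 0.0215) without replicate 1 of Prep-/- M0, the library that also stood out for H2-Aa. Cd80, a ligand of CD28, was at 17.9 to 19.1 CPM in Prep+/- M0, 22.3 to 25.2 in Prep+/- M2, 18.7 to 23.7 in Prep-/- M0 and 9.76 to 14.3 CPM in Prep-/- M2 (interaction -1.22, SE 0.21, adjusted p = 0.00276), kept in 12 of 12 fits with 1 library left out.

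Of inflammatory cytokine and chemokine genes, 3 of 34 (8.82%) were called, near the share of all genes, and 0 without replicate 3 of Prep-/- M2 or replicate 3 of Prep+/- M0. Each was lower, led by Cxcl10 and Il1b (-3.24, SE 0.92, adjusted p = 0.0365). Il1b, the interleukin-1 beta gene, was at 8.87, 3.06 and 1.94 CPM in Prep-/- M0 and at 0.250 to 1.38 CPM in all other libraries.

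Cholesterol synthesis genes, which the factor SREBP2 controls, moved to the other side. All 14 called members of 24 tested (58.3%) had a higher response, with a median interaction of 1.17, and 12 of the 14 gained a rise. None of the 24 rose in Prep+/- cells and 14 rose in Prep-/- cells. Sqle, the gene of squalene epoxidase, was at 53.1, 65.3 and 75.1 CPM in Prep+/- M0, 36.2, 31.1 and 46.5 CPM in Prep+/- M2, 18.8, 14.5 and 17.1 CPM in Prep-/- M0 and 21.8, 21.4 and 125 CPM in Prep-/- M2. Each Prep-/- M2 library was above each Prep-/- M0 library, and replicate 3 was far above both others. The interaction was 2.50 (SE 0.69, adjusted p = 0.032) and 1.14 (adjusted p = 0.0399) without replicate 3 of Prep-/- M2. Idi1, the isopentenyl diphosphate isomerase gene, went from 2.14 (adjusted p = 0.0345) to 1.34 (adjusted p = 0.0881) without it.

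The count of 14 became 10 without both Prep-/- libraries that stand apart, 4 in the fit of the M0 and M2 libraries alone, 0 by glmTreat, and 3 to 19 with 1 library left out, lowest without replicate 2 or 3 of Prep+/- M0 or replicate 1 of Prep+/- M2 and highest without replicate 2 of Prep-/- M2. Without replicate 3 of Prep-/- M2 it was 6, with a median of 0.73. Insig1, which encodes the sensor that holds SREBP in the endoplasmic reticulum and was picked after its values were seen, was at 56.4, 50.7 and 63.7 CPM in Prep+/- M2 and 101, 89.9 and 143 CPM in Prep-/- M2, with 62.8 to 79.3 and 60.5 to 65.8 CPM in the M0 groups (interaction 1.10, SE 0.23, adjusted p = 0.00774). Its call held in 12 of 12 fits with 1 library left out.

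Fatty acid and LXR genes had 7 of 28 members called (25.0%), all higher, with a median of 0.32. Without replicate 3 of Prep-/- M2 it was 4, with a median of 0.33, and by glmTreat 0. Scd2, a stearoyl-CoA desaturase gene, was at 74.5, 81.7 and 157 CPM in Prep+/- M2 and 232, 246 and 992 CPM in Prep-/- M2, from 51.7 to 79.2 and 66.9 to 74.4 CPM in M0 (interaction 2.19, SE 0.62, adjusted p = 0.0362). Without replicate 3 of Prep-/- M2 it was 1.16 (adjusted p = 0.0771). The other largest member was Fads2, described above.

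Of glycolysis and hypoxia-response genes, 9 of 26 (34.6%) were called, all higher, with a median of 0.77. In M0, 14 of the 26 were lower in Prep-/- than in Prep+/- cells and 2 were higher, and in M2 it was 1 and 4. Pgam1, the phosphoglycerate mutase gene, was at 210, 252 and 295 CPM in Prep+/- M0 and 73.4, 106 and 41.3 CPM in Prep-/- M0. In M2 it was at 210, 232 and 241 CPM in Prep+/- and 201, 178 and 334 CPM in Prep-/- libraries. The genotypes were apart in M0 and overlapped in M2 (interaction 1.84, SE 0.37, adjusted p = 0.00728). Slc2a1, the glucose transporter 1 gene, had an interaction of 1.75 (SE 0.53, adjusted p = 0.0482) that was 0.86 (adjusted p = 0.0912) without replicate 3 of Prep-/- M2. The count ran from 4 (without replicate 2 or 3 of Prep+/- M0 or replicate 1 or 2 of Prep+/- M2) to 12 with 1 library left out, was 5 with a median of 0.43 without replicate 3 of Prep-/- M2, and was 0 by glmTreat.

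Ribosome biogenesis genes had 11 of 35 members called (31.4%), all higher, with a median of 0.75. By the test of each response 26 rose in Prep-/- cells and 1 in Prep+/- cells, and 28 were lower in Prep-/- cells in M0. The largest was Myc, a transcription factor gene given above and also counted in the IL-4/IL-13 list, followed by Srm, the spermidine synthase gene. Srm was at 6.36, 4.73 and 3.97 CPM in Prep-/- M0 and 18.9, 15.3 and 52.5 CPM in Prep-/- M2 against 18.1 to 29.4 and 30 to 42.5 CPM in Prep+/- M0 and M2 (interaction 2.01, SE 0.55, adjusted p = 0.0307, and 1.26, adjusted p = 0.0618, without replicate 3 of Prep-/- M2). The count of the list was 2, with a median of 0.36, without replicate 3 of Prep-/- M2, 2 without both libraries that stand apart and 2 in the fit of the M0 and M2 libraries alone. It was 0 with the replicate number as a block within genotype and by glmTreat. With 1 library left out it ran from 1 (without replicate 2 or 3 of Prep+/- M0 or replicate 1 or 2 of Prep+/- M2) to 15.

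Oxidative phosphorylation genes had 4 of 32 called (12.5%, against 8.66% of all genes tested), all higher, with a median of -0.02. Cycs, the cytochrome c gene, was the clearest of them. It was at 39.7, 52.6 and 45.8 CPM in Prep+/- M0 and 13.9, 12.5 and 14.9 CPM in Prep-/- M0, and at 72.6, 58.7 and 73.5 CPM and 68.3, 61.8 and 77.5 CPM in M2. The genotypes were apart in M0 and overlapped in M2 (interaction 1.76, SE 0.19, adjusted p = 6.9e-05, and 1.65 to 1.85 with 1 library left out). It has 12 annotated near-identical copies. Ppargc1b, given above, is also counted here.

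Cell cycle genes were lower in Prep-/- cells in both states. Of 43 DNA replication genes, 42 were lower in Prep-/- than in Prep+/- cells in M0 and 39 in M2, against 17.2% and 9.82% of all genes tested. In the interaction 4 (9.30%) were called, all higher, a share near that of all genes (8.66%). The largest were the uracil DNA glycosylase gene Ung (2.12, adjusted p = 0.0455, and 1.08, adjusted p = 0.143, without replicate 3 of Prep-/- M2) and the sliding clamp gene Pcna (1.53, adjusted p = 0.0307, and 0.88, adjusted p = 0.0401). Of 44 mitosis genes 0 were called by edgeR, 1 passed an unadjusted p of 0.05 and 1 was called by DESeq2, while 41 were lower in Prep-/- cells in M0 and 41 in M2. Their summed level was 5381 to 5533 CPM in Prep+/- M0, 1202 to 2614 in Prep-/- M0, 3756 to 3878 in Prep+/- M2 and 1161 to 2075 CPM in Prep-/- M2.

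Antioxidant and iron genes had 6 of 24 called (25.0%), 5 higher and 1 lower, with a median of 0.23. Slc7a11, the cystine transporter gene, rose to 3.24, 4.78 and 7.36 CPM in Prep+/- and 8.75, 6.55 and 18.4 CPM in Prep-/- cells from 0.277 to 1.74 CPM in M0 (interaction 2.71, SE 0.72, adjusted p = 0.0264). Gclc, which encodes the catalytic subunit of glutamate-cysteine ligase, was at 44.3, 49.0 and 57.3 CPM in Prep+/- M0 and 12.9, 17.4 and 9.41 CPM in Prep-/- M0, and its M2 groups held 41.2 to 47.6 and 23 to 43.4 CPM (interaction 1.39, SE 0.32, adjusted p = 0.013). The Prep-/- M0 libraries of Gclc were the lowest.

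Of Gas6 and efferocytosis genes 4 of 17 (23.5%) were called, 2 in each direction, with a median of -0.07. The count was 0 in the fit of the M0 and M2 libraries alone, by glmTreat, and without replicate 2 or 3 of Prep+/- M0 or replicate 1 of Prep+/- M2. The complement gene C1qa fell from 407 to 602 CPM to 204 to 285 CPM in Prep+/- cells and from 514 to 1135 CPM to 156 to 193 CPM in Prep-/- cells (interaction -1.27, SE 0.32, adjusted p = 0.0221). Axl, a receptor of Gas6, had an interaction of -1.13 (SE 0.33, adjusted p = 0.0427) kept in 3 of 12 fits with 1 library left out. Of BMP and TGF-beta genes 2 of 24 (8.33%) were called, near the share of all genes (8.66%). They were Thbs1 and Tgfbi (-0.94, SE 0.20, adjusted p = 0.0103), and the median of the list was -0.15.

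**Figure D5:**
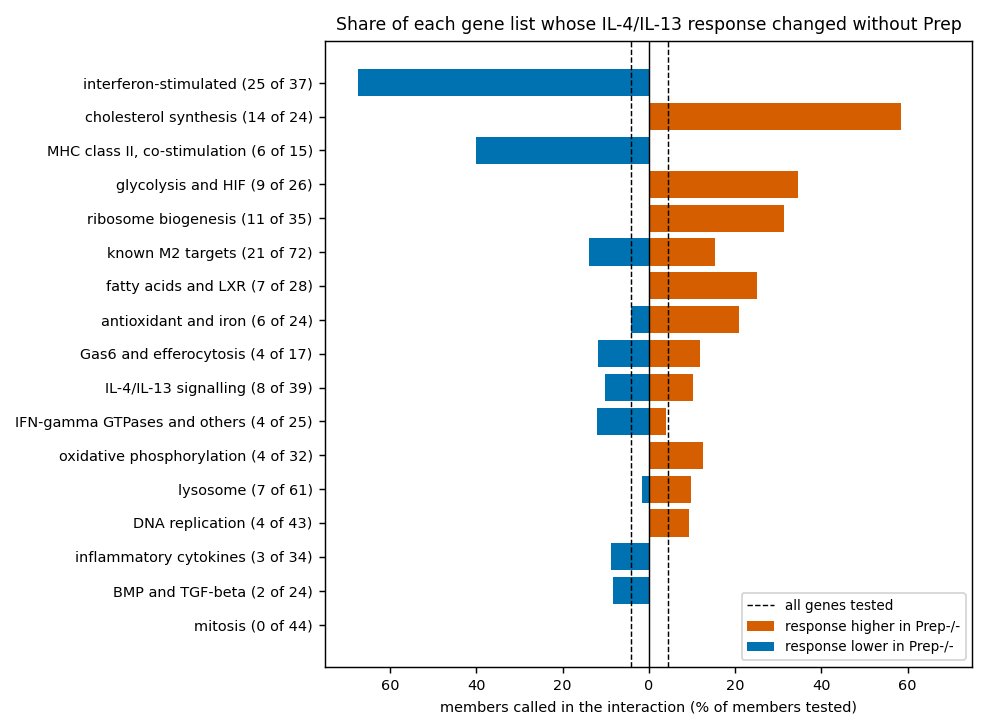
Bars give, for 17 gene lists, the percentage of tested members called in the interaction, to the right for a higher and to the left for a lower response in Prep-/- than in Prep+/- BMDMs, with counts beside each name. The dashed lines mark the share of all genes tested (4.53% higher and 4.13% lower). Interferon-stimulated and MHC class II genes extend to the left alone and cholesterol synthesis, glycolysis and ribosome biogenesis genes to the right alone. The lists were chosen with earlier results of these data known.

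Some markers used to check the cells were themselves called, and the 4 given here were chosen after their values were seen. Of the 6 macrophage markers, Adgre1, the F4/80 gene, was at 708 to 795 CPM in Prep+/- M0, 1239 to 2193 in Prep-/- M0, 879 to 1042 in Prep+/- M2 and 877 to 999 CPM in Prep-/- M2 (interaction -1.22, SE 0.23, adjusted p = 0.00515), and Fcgr1, a high-affinity Fc receptor gene, had an interaction of -1.44 (SE 0.34, adjusted p = 0.017). Of the monocyte markers Ccr2, a chemokine receptor gene, fell from 40.4 to 43.2 CPM to 14.9 to 21.5 CPM in Prep+/- cells and from 87.1 to 130 CPM to 12.3 to 14.6 CPM in Prep-/- cells (interaction -1.80, SE 0.27, adjusted p = 0.00105). Pecam1, listed with stromal cells but also made by myeloid cells, rose from 0.434 to 0.501 CPM to 8.18 to 11.8 CPM in Prep+/- cells and from 1.29 to 3.41 CPM to 3.59 to 7.20 CPM in Prep-/- cells (interaction -3.06, SE 0.52, adjusted p = 0.00245). The M0 levels of all 4 were higher in every Prep-/- than in every Prep+/- library.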

How the data were processed

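Gene-level read counts of 18 poly(A) mRNA libraries were used as the authors deposited them, in 1 table of 16314 gene symbols; per the submitters' processing notes, reads were handled with Trimmomatic 0.36 and HISAT2 2.2.1.0 on GRCm39. The annotation release and the strand setting of the counting are not given in the sources used here, so overlapping genes and near-identical copies are uncertain. Genes were tested with edgeR 4.0.16 in R 4.3.3 (quasi-likelihood test, 1 coefficient per group over all 18 libraries, filterByExpr, TMM scaling, 12021 genes, Benjamini-Hochberg adjustment). A call needs an adjusted p under 0.05 and a fold, or ratio of folds, over 1.5. Values with "interaction", "response" or "SE" are on the log2 scale, and levels are TMM-scaled CPM. Each SE was worked back from the log2 value and the F statistic of its quasi-likelihood test. Nothing ties replicate numbers to mice or cultures, so p-values measure the spread between these libraries, which may be technical.

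Named genes were, per class and direction, those of largest interaction with at least 5 CPM in 1 group, at least 0.5 CPM in each and no overlap between states where a response was called (4 for lost and gained, up to 3 for reversed, 2 for weaker and stronger), plus Prep, the study's markers and cathepsins, called members of the IL-4/IL-13 and M2 lists, the 2 largest of each other list, and of genes with a group under 0.5 CPM the 2 most abundant per direction. The members and lists were chosen with earlier results of these data known. Alternatives were RLE scaling, DESeq2 1.42.0, other filters, the 12 libraries alone, glmTreat, no fold criterion, replicate blocks and leaving out each library; leaving out both libraries that stand apart, applying the alternatives to the lists, and the monocyte sum without Chil3, were chosen after seeing the data. The script was tested on simulated counts. Near-identical copies were searched with BLAST+ 2.17.0 at 90% identity over 200 bases. Promoters came from RefSeq for 9681 of the 12021 genes.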

Additional observations from a re-analysis of the deposited data

Results flagged for a closer look

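The response to IL-4/IL-13 differed between the genotypes by the interaction test itself in 545 genes with a higher and 496 with a lower response in Prep-/- cells. Of the genes named by size, those with a lower response were Ms4a4a (-4.29), Ms4a4c (-4.01), Gm5150 (-3.99), Ifit1 (-3.76), Cxcl10 (-3.74), Ifit3 (-3.71), H2-Eb1 (-2.94), H2-Aa (-2.91), Mgl2 (-2.91), H2-Ab1 (-2.70), Ctla2b (-2.57), Thbs1 (-2.53), Fcgr2b (-2.25) and Rara (-1.25), in log2 units. Those with a higher response were Ak4 (3.76), Pdpn (3.52), Bcl2 (3.29), Eef1a2 (3.15), Gprc5b (2.79), Plk3 (2.70), Fads2 (2.66), Cav1 (2.59), Prag1 (2.37), Dner (2.10), Bhlhe41 (1.58) and Pgk1 (1.28). Of these genes, 10 lost their call without replicate 2 of Prep+/- M0, and the same 10 without replicate 3 of Prep-/- M2. They were H2-Eb1, H2-Aa, H2-Ab1, Fads2, Cav1, Prag1, Dner, Pdpn, Eef1a2 and Cxcl10. Groups of 3 libraries are too small for a test of single outlying samples.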

How the results depend on the processing

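No called interaction changed sign under any alternative, but counts did. With the M0 and M2 libraries alone, 252 genes were higher and 310 lower, with 45 lost, 345 gained and 4 reversed. Testing against the fold itself (glmTreat) left 43 higher and 60 lower, with 9 lost, 3 weaker, 64 gained, 24 stronger and 1 reversed; responses then counted 374 up and 298 down in Prep+/- and 951 up and 947 down in Prep-/- cells, and genotype differences 837 higher and 1133 lower in M0 and 228 and 495 in M2. With adjusted p alone, 24 were reversed, 1124 rose in Prep+/- and 2657 in Prep-/- cells, and 2922 (M0) and 1394 (M2) were higher in Prep-/- cells. DESeq2 called 1388 in all, with 30 weaker. Leaving out 1 library gave 268 to 830 higher, 234 to 619 lower, 36 to 99 lost, 12 to 24 weaker, 312 to 966 gained, 119 to 246 stronger and 2 to 17 reversed, lowest without replicate 2 of Prep+/- M0 (for weaker, also without replicate 3) and highest without replicate 2 of Prep-/- M2 (for lost, without replicate 1 of Prep+/- M0). Without both libraries that stand apart, 1089 were called, of which 749 were shared with the 1041. Of 572 alternative values of the 26 genes named by size, 460 kept their call and 112 lost it. With 1 library left out, called members numbered 0 to 6 for interferon-gamma, 0 to 5 for efferocytosis, 0 to 8 for DNA replication, 0 to 5 for inflammatory, 4 to 10 for fatty acid and 3 to 7 for antioxidant genes. The cause of these changes was not tested. Fits that left out libraries also held fewer of them, and the part of this was not tested either.

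Both replicate blocks were fitted on the 12 M0 and M2 libraries, where the fit with no block called 252 higher and 310 lower, with 345 gained and 4 reversed. With the replicate number as a replicate block within genotype, 248 genes were higher and 298 lower, with 328 gained and 4 reversed; with a replicate block across genotypes, 306 were higher, 363 lower and 413 gained. Same-numbered M0 and M2 libraries deviated from their group means with correlations of -0.076 to 0.245 in Prep+/- and 0.01 to 0.176 in Prep-/- cells. Across genotypes the correlations were -0.315 to -0.039 in M0 and 0.249 to 0.462 in M2. Taken over all these comparisons, not every pair exceeded 0.1, so the numbers were not taken as pairs. The M2 pairs across genotypes all did, with replicate 3 the highest. Like its Prep-/- counterpart, replicate 3 of Prep+/- M2 was the highest of its group in mean log2 CPM of cholesterol synthesis genes (5.172 against 4.957 and 4.910). For DNA replication genes it was the lowest (5.532), while replicate 3 of Prep-/- M2 was the highest (4.346). Whether these libraries share an origin was not tested. The block within genotype gives no difference between genotypes within a state.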
